A study of Mus musculus with 20 samples.

Results

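The 8 genes described here carry out the storage, transport, activation, sensing and breakdown of vitamin A: Lrat, Rbp4, Rdh11, Aldh1a1, Aldh1a2, Rarb, Cyp26a1 and Cyp26b1. They were picked by name, matching the Ensembl IDs of the count table to mm10 gene symbols, and make up 8 of the table's 55401 gene IDs. All 8 passed the filter on low counts and were among the 14542 genes tested. The tissue was liver of C57BL/6 mice, in 10 libraries from mice on a high-fat diet (HFD 1 to HFD 10) and 10 from mice on standard chow (chow 1 to chow 10). Fat made up 60% of the HFD, carbohydrate 20% and protein 20%, and feeding lasted 12 weeks. Every sample carries the genotype label WT, and the labels give neither sex nor age nor whether the samples came from different mice, and any p-value below therefore reflects variation among the libraries, some of which may be technical. Although the design text names 3 groups on the HFD, the 10 HFD samples are labelled alike and were analysed as 1 group.

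The liver holds most of the body's vitamin A, as retinyl esters in the lipid droplets of stellate cells, where LRAT makes the esters. Hepatocytes send retinol into the blood bound to RBP4, which travels in a complex with transthyretin, the product of Ttr. Inside cells, retinol is oxidised to retinal by retinol dehydrogenases and retinal to retinoic acid by the ALDH1A enzymes. Retinoic acid binds nuclear receptors such as RARB, and the CYP26 hydroxylases break it down. Cyp26a1 and Rarb are themselves well-known target genes of retinoic acid.

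Some libraries stood apart from the rest, and this bears on every comparison below. Library totals were 20111896 to 90033879 counts in HFD and 34727227 to 49065587 counts in chow. Mitochondrial transcripts took 75.6% of the counts of HFD 1 and 94.4% of those of HFD 2, against 1.34% to 3.10% in the other 18 libraries. Ribosomal RNA took 20.4% of the counts of chow 9 and 13.3% of those of HFD 1, against 0.125% to 0.807% in the others. Apoe, which encodes apolipoprotein E, had 15.7 to 819 CPM (counts scaled to a common library total, here TMM-scaled) in 9 HFD libraries and 10124 CPM in HFD 6, against 12739 to 17328 CPM in chow. HFD 6 also had 240.5 CPM of the leptin receptor gene Lepr, against 2.09 to 14.4 CPM in the other HFD libraries. These levels sit beside a WT label on every sample; genotype was not tested, and the diet and a difference in genotype cannot be told apart. Results are therefore given for the libraries as labelled, and again without HFD 1 and HFD 2 and without HFD 1, HFD 2 and HFD 6. As a check of the tissue label, 11 hepatocyte marker genes, among them albumin, summed to 25549.6 to 160136 CPM in HFD (median 94092) and 100625 to 155632 CPM in chow (median 111059).

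Of the 8 genes of vitamin A storage, transport and metabolism, 3 were called lower in HFD livers. None of the 8 was called higher by edgeR, also at an unadjusted p under 0.05, by DESeq2 or by limma voom. The 3 that fell, at an adjusted p under 0.05 in the edgeR quasi-likelihood fit over all genes, were Rdh11, Rbp4 and Cyp26a1. Of all genes tested, 7.05% were called lower and 13.0% higher. The median log2 change was −0.78 over the 8 genes and 0.02 over all genes tested. Aldh1a1 and Cyp26b1 had negative estimates that did not pass the threshold, Lrat was close to no change, and Aldh1a2 and Rarb were too low for a narrow estimate. Without HFD 1 and HFD 2 the 2 genes called lower were Rdh11 and Rbp4, where 10.4% of all genes tested were called lower. Without HFD 1, HFD 2 and HFD 6 there were 4, Rdh11, Rbp4, Aldh1a1 and Cyp26a1, where 15.0% of all genes tested were called lower and 33.3% in either direction.

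**Figure D1:**
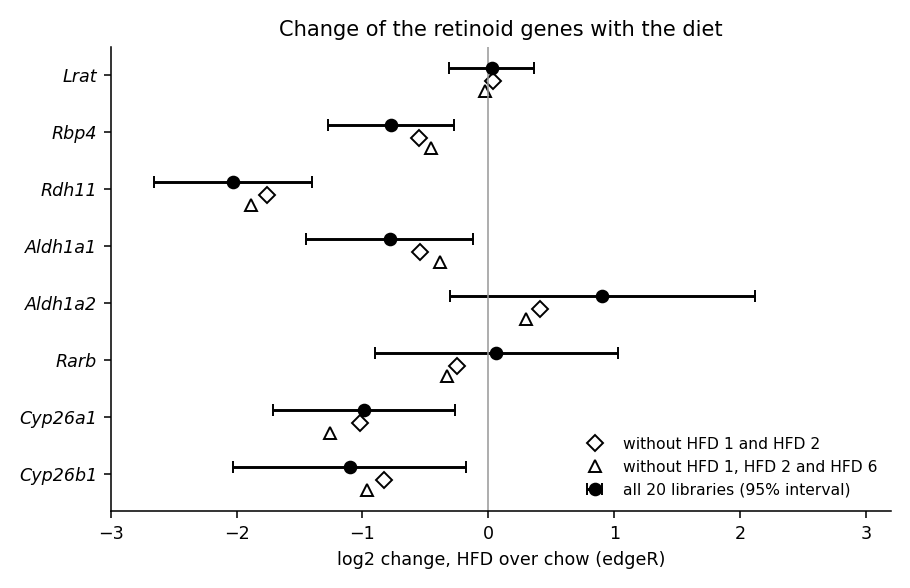
Log2 change (x axis, HFD over chow, edgeR) of the 8 genes, ordered by role from storage at the top to breakdown at the bottom. Filled circles with bars are all 20 libraries with the 95% interval, open diamonds leave out HFD 1 and HFD 2, and open triangles leave out HFD 6 as well. The interval of Rdh11, −2.65 to −1.40, lies farthest below 0, and that of Lrat, −0.31 to 0.37, spans 0.

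Lrat, the enzyme that esterifies retinol for storage (ENSMUSG00000028003, GRCm38 chr3:82892579-82903973, minus strand), stayed within its chow range in all 10 HFD libraries. Its lowest, median and highest HFD library had 8.38, 10.1 and 15 CPM, against 6.14, 9.99 and 15.7 CPM in chow. The groups overlapped completely. The log2 change was 0.03 (95% interval −0.31 to 0.37, edgeR adjusted p = 0.929). In bulk liver, fewer cells of a type and less RNA per cell cannot be told apart.

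Because Lrat marks stellate cells in liver, it was set beside 18 other stellate cell markers, all of which were tested. Summed over the 18, the level was 107 to 270.0 CPM in HFD (median 229) and 144 to 263 CPM in chow (median 244). Des, the intermediate filament desmin, and Cygb, a globin of stellate cells, rose by 0.92 and 0.61 in log2 (edgeR adjusted p = 0.031 and 0.0355). Vipr1, a receptor for vasoactive intestinal peptide, fell by 0.57 (edgeR adjusted p = 0.0233), and the other 15 were not called. Of the 18, 11.1% were thus higher and 5.56% lower, against 13.0% and 7.05% of all genes tested. The call of Des was lost without HFD 8, chow 2 or chow 9, and its change was 0.61 without HFD 1. That of Cygb was lost without any 1 of HFD 4, 8 and 10 and chow 2, 3, 4, 5, 6, 8, 9 and 10. The log2 ratio of Lrat to the mean of these markers within a library averaged 1.27 ± 1.08 in HFD and 0.90 ± 0.26 in chow (SD, n = 10 each). The groups overlapped in 6 HFD libraries, while HFD 1, HFD 6 and HFD 2 lay above every chow library, at 4.15, 1.70 and 1.46, and HFD 4 below every chow library, at 0.44. HFD 1 is a library in which 7 of the 18 markers had 0 counts. The difference of 0.37 did not pass a two-sided permutation test (p adjusted over the 3 ratios tested = 0.378), and without HFD 1, HFD 2 and HFD 6 it was −0.13 (exact permutation test, adjusted p = 0.251). Among 9 tested markers of activated stellate cells, which lose their retinyl esters as they become matrix-producing cells, 4 rose (edgeR, and 4 with DESeq2 and limma voom): Col1a1, Col1a2 and Col3a1, collagen chains, and Lox, which cross-links collagen. Their log2 changes were 1.73, 1.20, 1.12 and 2.49 (edgeR adjusted p at most 0.00443). Over all genes tested, edgeR called 13.0% higher. Lox itself was scarce, at 0, 0.369 and 2.45 CPM in the lowest, median and highest HFD library and 0.0638, 0.110 and 0.207 CPM in chow.

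Rbp4, the plasma carrier of retinol (ENSMUSG00000024990, chr19:38116629-38125281, minus strand), was lower in HFD. The lowest, median and highest HFD library had 565, 1674 and 2410.1 CPM, against 1994, 2507 and 4020.1 CPM in chow. In 7 of 10 HFD libraries Rbp4 lay below every chow library, and the 3 lowest values were those of HFD 2, HFD 1 and HFD 6. The means were 1535 ± 653 CPM in HFD and 2622 ± 558 CPM in chow (SD, n = 10 each), a log2 change of −0.77 (SE 0.241, edgeR adjusted p = 0.0266). It was −0.55 without HFD 1 and HFD 2 (edgeR adjusted p = 0.0304) and −0.46 without HFD 1, HFD 2 and HFD 6 (edgeR adjusted p = 0.0175), which is over 1.5 times closer to 0. The call was lost without chow 2, the highest chow library at 4020.1 CPM, where the change was −0.69, and without chow 6, where it was −0.73. Of the 11 hepatocyte markers tested, 2 fell, Ttr and Apoa2 (edgeR adjusted p = 0.00217 and 0.021), against 7.05% of all genes tested. At an unadjusted p under 0.05, 4 of them were lower, with DESeq2 2 and with limma voom 5, and none higher. The median log2 change of the 11 was −0.43. Their summed level was 25549.6 CPM in HFD 2, 29918 CPM in HFD 1 and 73432 CPM in HFD 6. It was 84529 CPM in HFD 9 and 84565 CPM in HFD 8, all below the lowest chow library, at 100625 CPM. The part of this level in the Rbp4 result was not tested.

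Ttr, the transthyretin that carries RBP4 in blood, fell as well. It had 985, 3233 and 4342 CPM in the lowest, median and highest HFD library, against 5725, 6184 and 9608 CPM in chow, with no overlap between the groups. Its log2 change was −1.09 (SE 0.237, edgeR adjusted p = 0.00217), and −0.87 without HFD 1, HFD 2 and HFD 6 (edgeR adjusted p = 8.9e-06). All HFD libraries below all chow libraries was seen for 2.70% of all genes tested. The log2 ratio of Rbp4 to Ttr, which does not depend on library scaling, averaged −1.02 ± 0.46 in HFD and −1.34 ± 0.13 in chow (SD, n = 10 each). In 8 HFD libraries the ratio was above every chow library, while HFD 6, at −2.23, was below every chow library. Over all libraries the difference of 0.31 had p = 0.0454 in a two-sided permutation test and 0.0681 after adjustment over 3 ratios. Without HFD 1 and HFD 2 it was 0.24 and did not pass (exact permutation test, adjusted p = 0.221). Without HFD 6, the single library whose removal gave the largest difference, it was 0.45 (exact permutation test, adjusted p = 0.00013). Without HFD 1, HFD 2 and HFD 6 it was 0.41 (exact permutation test, adjusted p = 0.000463).

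**Figure D2:**
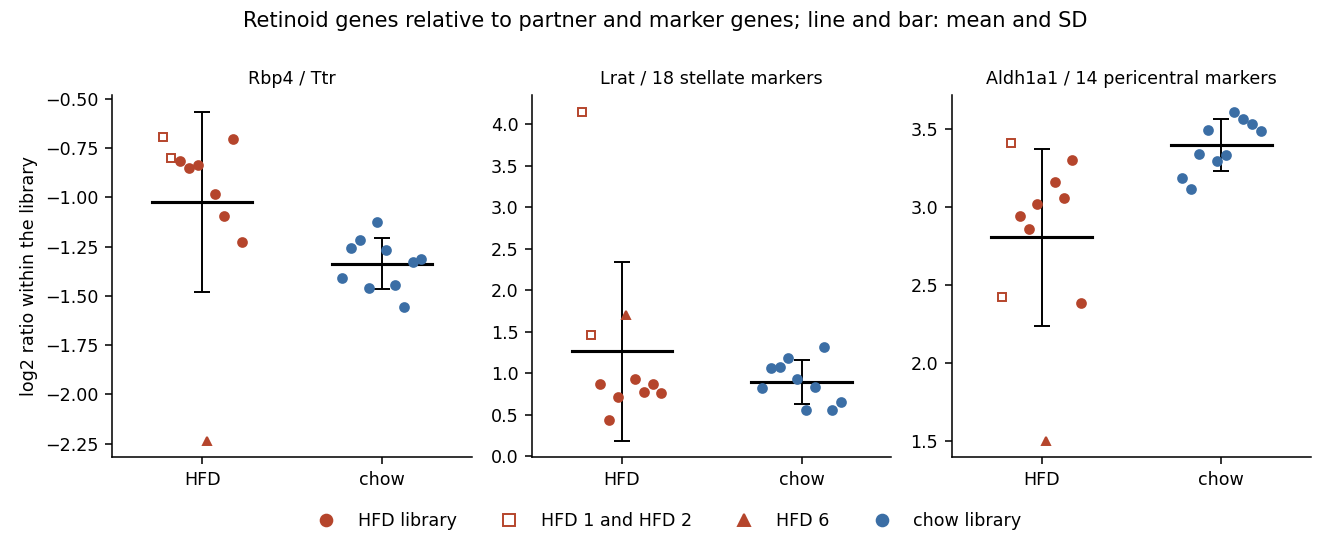
Log2 ratio within each library (y axis) of Rbp4 to Ttr, of Lrat to 18 stellate cell markers and of Aldh1a1 to 14 pericentral hepatocyte markers, with HFD on the left and chow on the right of each panel. Points are libraries, open squares are HFD 1 and HFD 2, the triangle is HFD 6, and lines with bars are the mean and SD of 10 libraries. HFD 6 lies lowest in the Rbp4 and Aldh1a1 panels, at −2.23 and 1.5, and HFD 1 highest in the Lrat panel, at 4.15.

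Rdh11, a microsomal dehydrogenase that converts between retinol and retinal (ENSMUSG00000066441, chr12:79174337-79192293, minus strand), had the smallest p of the 8 genes. Its lowest, median and highest HFD library had 3.49, 19.1 and 44.6 CPM, against 67.5, 82.8 and 110.0 CPM in chow. Every HFD library lay below every chow library, as for 2.70% of all genes tested. The means were 21.4 ± 12.9 CPM in HFD and 88.2 ± 15.3 CPM in chow (SD, n = 10 each), so that Rdh11 was 4.12-fold lower in HFD. The log2 change was −2.03 (SE 0.302, 95% interval −2.65 to −1.40, edgeR adjusted p = 4.19e-05). HFD 1 and HFD 2 were the lowest, with 24 and 20 counts, and HFD 10 and HFD 6 the highest of the HFD libraries, at 44.6 and 38.8 CPM. The change was −1.76 without HFD 1 and HFD 2 and −1.89 without HFD 6 as well, and the call held in each of 20 refits that left out 1 library (edgeR adjusted p at most 0.000132).

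**Figure D3:**
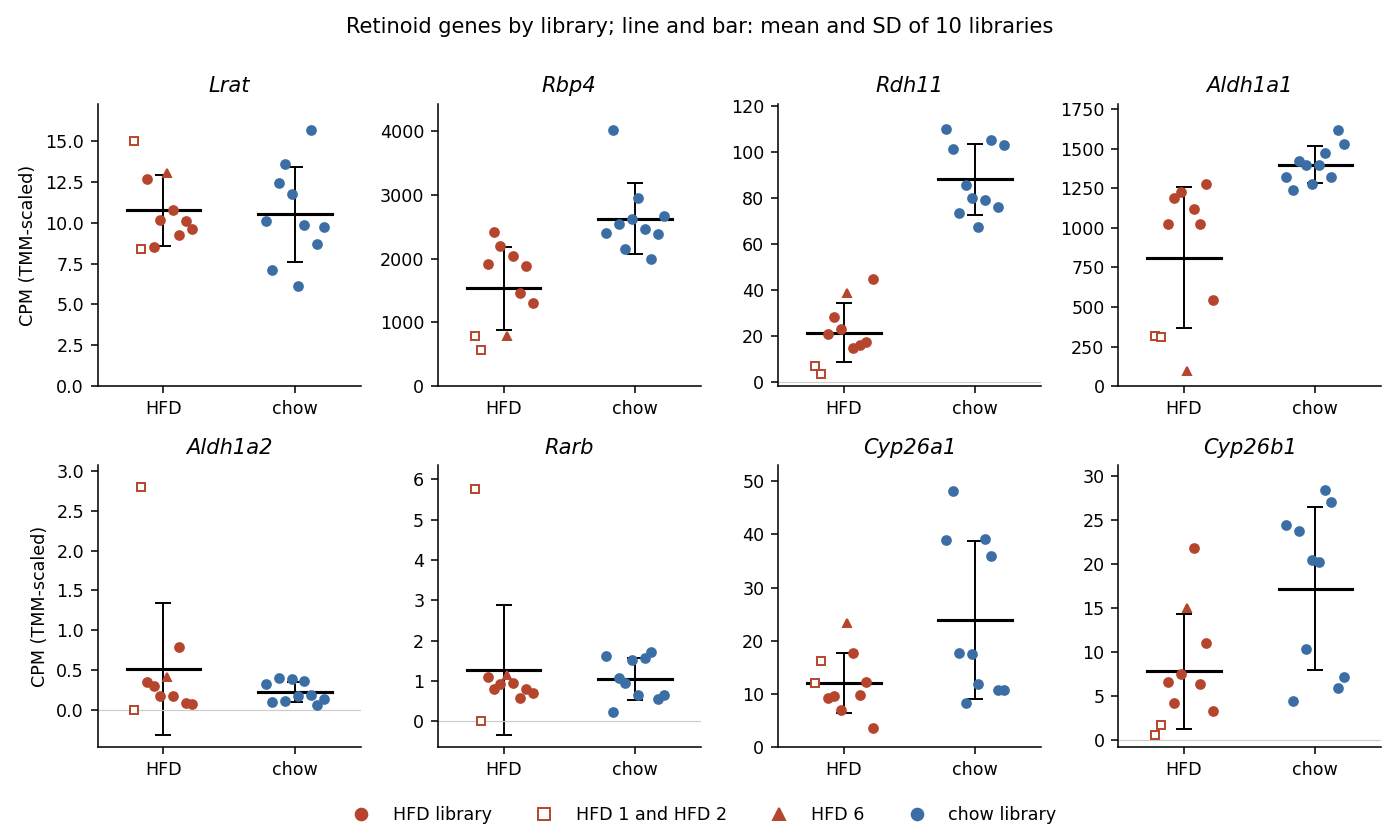
CPM (y axis, TMM-scaled) of the 8 genes in each library, with HFD on the left and chow on the right of each panel. Points are libraries, open squares are HFD 1 and HFD 2, the triangle is HFD 6, and lines with bars are the mean and SD of 10 libraries. Rdh11 shows no overlap between HFD, up to 44.6 CPM, and chow, from 67.5 CPM, whereas Lrat overlaps completely.

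Other enzymes that interconvert retinol and retinal were described as a list. Of 20 tested genes on that list, 1 rose and 4 fell, and the median log2 change was −0.36. Of all genes tested, 13.0% rose and 7.05% fell. Adh1, the class I alcohol dehydrogenase that oxidises retinol, had 145, 1024 and 1344 CPM in the lowest, median and highest HFD library, against 1339.7, 1542 and 1619 CPM in chow. The log2 changes of those that fell were −0.80 for Adh1, −0.60 for Adh5, −0.54 for Dhrs4, a retinal reductase, and −1.21 for Hsd17b6 (edgeR adjusted p = 0.033, 0.0205, 0.0169 and 0.029). Adh5 lay below every chow library in all 10 HFD libraries, as for 2.70% of all genes tested. The call of Adh1 was lost without any 1 of HFD 1, HFD 2, HFD 8, chow 2, chow 6, chow 7 and chow 10, and that of Hsd17b6 without HFD 2, HFD 8, chow 2 or chow 6. Dhrs9, a retinol dehydrogenase named here after its values were seen, rose by 1.13 (edgeR adjusted p = 0.0463). That call was lost without any 1 of HFD 1, 3, 4, 5, 7, 8 and 10 and of every chow library other than chow 9. Without HFD 1 and HFD 2 the list had 3 higher and 3 lower, and without HFD 6 as well 2 higher and 6 lower.

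Aldh1a1, a cytosolic enzyme that oxidises retinal to retinoic acid (ENSMUSG00000053279, chr19:20492715-20643465, plus strand), had 9 of 10 HFD libraries under the lowest chow library. Its lowest, median and highest HFD library had 97.7, 1024 and 1276 CPM, against 1239, 1398 and 1621 CPM in chow. Chow libraries kept within a narrow range, and the HFD libraries were spread widely, with HFD 6 at 97.7, HFD 2 at 312, HFD 1 at 314 and HFD 10 at 542 CPM. The log2 change of −0.78 (SE 0.320, edgeR adjusted p = 0.0886) did not pass the threshold. Nor did it pass without HFD 1 and HFD 2 (−0.54, edgeR adjusted p = 0.177) or in any of 20 refits that left out 1 library. Without HFD 1, HFD 2 and HFD 6, a setting chosen after seeing the data, the change was smaller, −0.39, and passed the threshold (SE 0.126, edgeR adjusted p = 0.0231). Its neighbour Aldh1a7 is a close copy, and how reads were shared between them is not given in the sources used here, so both values are uncertain. Aldh1a7 fell by 0.82 (edgeR adjusted p = 0.0193), with all 10 HFD libraries below all chow libraries, as for 2.70% of all genes tested.

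Set against 14 pericentral hepatocyte markers, Aldh1a1 was lower in HFD within the same libraries. The log2 ratio averaged 2.81 ± 0.57 in HFD and 3.40 ± 0.17 in chow (SD, n = 10 each), and 7 of 10 HFD libraries were below every chow library. The difference was −0.59 (two-sided permutation test, p = 0.00087, adjusted p = 0.00261), and −0.44 without HFD 1, HFD 2 and HFD 6 (exact permutation test, adjusted p = 0.00123). None of the 14 markers was called by edgeR at an adjusted p under 0.05 over all libraries, 3 had an unadjusted p under 0.05, DESeq2 called 2 and limma voom 4, all lower. Without HFD 1, HFD 2 and HFD 6, edgeR called 3 of the markers higher and 2 lower, with a median log2 change of 0.01. In that setting 18.2% of all genes tested were called higher and 15.0% lower. The summed level of the 14 markers was 2884 to 18916 CPM in HFD (median 13234) and 15300.1 to 20782 CPM in chow (median 17034). The lowest sums were those of HFD 2, HFD 1 and HFD 6, at 2884, 2923 and 3215 CPM.

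Of the 6 tested genes on the list for oxidation of retinal, other than the ALDH1A genes described here, 4 fell, against 7.05% of all genes. Besides Aldh1a7 these were the aldehyde oxidases Aox1 and Aox3 and Aldh8a1, an aldehyde dehydrogenase that accepts retinal. Aox1 averaged 35.2 ± 16.8 CPM in HFD and 105 ± 15 CPM in chow (SD, n = 10 each), a log2 change of −1.56 (edgeR adjusted p = 8.96e-05). Aox3 and Aldh8a1 changed by −1.57 and −0.60 (edgeR adjusted p = 0.00363 and 0.0196). In each of these 4 genes the HFD libraries all lay below the chow libraries, as for 2.70% of all genes tested. The 4 were called lower without HFD 1, HFD 2 and HFD 6 too, where Aox1 had −1.25 and Aox3 −1.16 in log2.

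Aldh1a2, the retinal dehydrogenase of mesothelial and stromal cells (ENSMUSG00000013584, chr9:71215789-71296243, plus strand), was near the limit of detection. Over all 10 libraries of a diet it had 180 counts in HFD and 120 counts in chow. The lowest, median and highest HFD library had 0, 0.239 and 2.79 CPM, against 0.0638, 0.173 and 0.394 CPM in chow, and the highest of these, in HFD 2, came from 16 counts. The log2 change of 0.91 had a 95% interval of −0.31 to 2.12 (edgeR adjusted p = 0.291), so a difference was not detectable at this depth. Mesothelial and portal fibroblast markers summed to 2.31 to 28.3 CPM in HFD (median 11.9) and 8.21 to 21.8 CPM in chow (median 10.5). Of 10 tested, 1 rose, against 13.0% of all genes tested. It was Thy1, a surface glycoprotein, by 1.11 in log2 (edgeR adjusted p = 0.0394). That call was lost without HFD 2, HFD 8 or any chow library other than chow 1 and chow 7.

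Rarb, a nuclear receptor for retinoic acid (ENSMUSG00000017491, chr14:16430839-16819156, minus strand), was also low. The lowest, median and highest HFD library had 0, 0.865 and 5.77 CPM, against 0.224, 1.01 and 1.71 CPM in chow. HFD 1 was the highest, on 20 counts, and HFD 2 had 0 counts, while the other 8 HFD libraries lay inside the chow range. The log2 change was 0.06 (95% interval −0.90 to 1.03, edgeR adjusted p = 0.941) and −0.33 without HFD 1, HFD 2 and HFD 6 (edgeR adjusted p = 0.447). The end of Rarb overlaps the end of Top2b on the opposite strand over 4624 bases. Top2b had 24543 counts over the 20 libraries, and without knowledge of strand the counts of Rarb may hold some of its reads.

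Cyp26a1, the retinoic acid hydroxylase of hepatocytes (ENSMUSG00000024987, chr19:37697798-37701536, plus strand), was lower in HFD by a call close to the threshold, lost in 14 of 20 refits that left out 1 library. Its lowest, median and highest HFD library had 3.57, 10.9 and 23.4 CPM, against 8.34, 17.6 and 48.1 CPM in chow. The groups overlapped in 8 of 10 HFD libraries. Chow libraries differed widely among themselves: chow 2, 7, 1 and 8 had 48.1, 39.1, 38.8 and 36.0 CPM, and the other 6 had 8.34 to 17.7 CPM. The log2 change was −0.99 (SE 0.347, edgeR adjusted p = 0.0479). The call was lost without HFD 1 and HFD 2 (−1.02, edgeR adjusted p = 0.0543) and held without HFD 1, HFD 2 and HFD 6 (−1.26, edgeR adjusted p = 0.0251). It was also lost without any 1 of HFD 1, 2, 3, 4, 5, 8, 9 and 10 and of chow 1, 2, 3, 5, 7 and 8, with changes between −0.82 and −1.03.

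Cyp26b1, the second retinoic acid hydroxylase (ENSMUSG00000063415, chr6:84571414-84593908, minus strand), gave a similar estimate that did not pass the threshold. The lowest, median and highest HFD library had 0.577, 6.46 and 21.8 CPM, against 4.44, 20.3 and 28.4 CPM in chow. In 4 HFD libraries the level was below every chow library, with HFD 1 and HFD 2 the lowest, on 2 and 10 counts. The log2 change was −1.1 (SE 0.445, edgeR adjusted p = 0.0851), and −0.97 without HFD 1, HFD 2 and HFD 6 (edgeR adjusted p = 0.109). Leaving out HFD 7, the highest HFD library at 21.8 CPM, brought it past the threshold (−1.41, edgeR adjusted p = 0.0255). Sinusoidal endothelial markers, set beside it, summed to 136 to 428 CPM in HFD (median 329) and 119 to 464 CPM in chow (median 397), with chow 2, HFD 2 and HFD 1 the lowest at 119, 136 and 145 CPM. None of these 10 markers was called by edgeR, DESeq2 or limma voom, and 3 had an unadjusted p under 0.05 in edgeR. Their part in the level of Cyp26b1 was not tested.

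Within chow, the level of Cyp26b1 and that of its fellow retinoid gene Rarb were set side by side. The widest gap in Cyp26b1 split the chow libraries into 6 at 20.2 to 28.4 CPM and 4, chow 2, 4, 9 and 10, at 4.44 to 10.4 CPM. Rarb ranged over 0.663 to 1.71 CPM in those 6 and over 0.224 to 0.940 CPM in those 4. Sinusoidal endothelial markers split these libraries in the same way, with sums of 119, 329.5, 319 and 312 CPM in chow 2, 4, 9 and 10 and of 371 to 464 CPM in the other 6, and their part in the pattern was not tested. Because the libraries fall on either side of a gap, no coefficient over all 10 is given, and the adjusted p-values of this pair below include that gap. Of 56 relations between pairs of the 8 genes, 28 in chow and 28 in the 8 HFD libraries other than HFD 1 and HFD 2, none passed an adjusted permutation p under 0.05 by Pearson's r, and by Spearman's rho only that pair in chow did (adjusted p = 0.0179, against 0.0535 by Pearson's r). Cyp26a1 and Cyp26b1 in those 8 HFD libraries had Pearson r = 0.85 (exact permutation p = 0.00781, adjusted 0.0875) and Spearman rho = 0.76 (exact permutation p = 0.0368, adjusted 0.294), and r was 0.79 without HFD 10 and HFD 6. Rbp4 and Aldh1a1 had r = 0.93 (exact permutation p = 0.00191, adjusted 0.0535) and rho = 0.69 (exact permutation p = 0.0694, adjusted 0.389). Without HFD 6 and HFD 10 the r of Rbp4 and Aldh1a1 was 0.59, so it rests in part on those libraries.

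**Figure D4:**
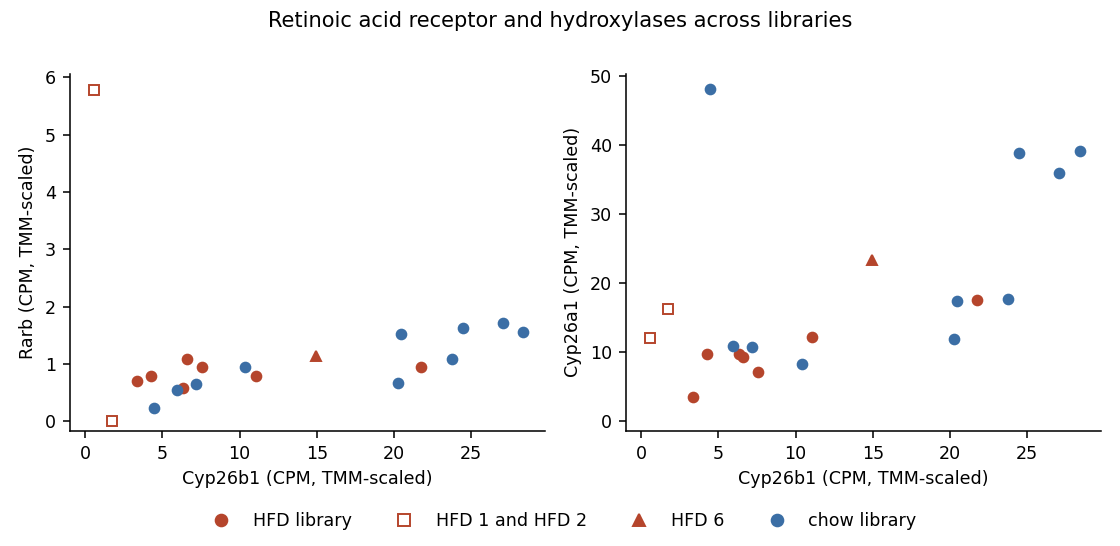
Level of Rarb (left panel, y axis, CPM) and of Cyp26a1 (right panel, y axis, CPM) against that of Cyp26b1 (x axis, CPM) in each of the 20 libraries. Red points are HFD, with HFD 1 and HFD 2 as open squares and HFD 6 as a triangle, and blue points are chow. HFD 1 stands apart with 5.77 CPM of Rarb, and chow 2 joins 48.1 CPM of Cyp26a1 to 4.44 CPM of Cyp26b1.

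The promoters of Cyp26a1 and Rarb are shown because they alone, among the 8 genes, held a DR5 element in the window searched. Retinoic acid receptors, paired with retinoid X receptors, bind direct repeats of a short motif. DR5 names a pair of such motifs with a spacer of 5 bases. RefSeq windows from 250 bases before to 50 bases after the gene start (GRCm38.p6) matched all 8 genes, in 11 windows, and both strands were searched. DR5 occurred in 32 of 32851 windows of all genes, or 0.0974%. In the sequences below, 5′ to 3′ on the gene's own strand, capitals mark the DR5, which in Cyp26a1 lies on the opposite strand. The Cyp26a1 stretch is chr19:37697648-37697797 (plus strand), just before the start of its GENCODE transcript. The Rarb stretch is chr14:16575506-16575535 (minus strand), which lies inside the GENCODE span of the Rarb gene, chr14:16430839-16819156.
Cyp26a1: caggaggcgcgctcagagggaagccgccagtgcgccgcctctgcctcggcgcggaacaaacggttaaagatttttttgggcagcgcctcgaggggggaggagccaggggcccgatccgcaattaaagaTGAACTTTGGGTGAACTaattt
Rarb: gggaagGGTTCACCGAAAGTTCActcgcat

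The DR5 of Cyp26a1 spans bases −32 to −16 from its RefSeq start, and that of Rarb bases −53 to −37. The closer spacings DR1 and DR2, present in 0.222% and 0.268% of all windows, were in no window of the 8 genes. Of single motifs, AGGTCA was found in Rdh11 (16.3% of all windows hold it) and AGTTCA in Cyp26a1 and Rarb (14%), where it forms part of the DR5. A match describes the letters of the window and was not tied to the levels of these genes. Cyp26a1 was called lower in HFD and Rarb was not, with log2 changes of −0.99 and 0.06, and the difference between those changes was not tested.

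Per base of transcript, the 8 genes spanned a wide range of levels. As median FPKM on TMM-scaled library sizes, Rbp4 stood at 1246 in HFD and 1867 in chow, and Aldh1a1 at 208 in HFD and 283 in chow. Rdh11 stood at 5.52 in HFD and 24 in chow, Cyp26a1 at 5.51 in HFD and 8.85 in chow, Cyp26b1 at 1.21 in HFD and 3.80 in chow and Lrat at 1.89 in HFD and 1.87 in chow. The lowest were Rarb, 0.164 in HFD and 0.192 in chow, and Aldh1a2, 0.106 in HFD and 0.0763 in chow. In chow the ranges of Rbp4, Aldh1a1 and Rdh11 did not overlap, nor did those of Lrat and Rarb. Neighbours whose chow ranges did overlap were Rdh11 with Cyp26a1, Cyp26a1 with Cyp26b1, Cyp26b1 with Lrat, and Rarb with Aldh1a2.

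The rest of the pathway was counted in 8 lists holding 89 further genes, 70 of which were tested. Of these 70, 5 rose and 17 fell, or 7.14% and 24.3%, against 13.0% and 7.05% of all genes tested. The median log2 change was −0.24, against 0.02 over all genes. Without HFD 1 and HFD 2 there were 8 higher and 15 lower, and without HFD 6 as well 6 higher and 24 lower. The fewest lower calls when leaving out 1 library were 11, without chow 6.

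Enzymes that make or cleave retinyl esters were mostly lower. Of 10 tested, 6 fell, 1 rose and 3 were not called, with a median log2 change of −0.56. Of all genes tested, 7.05% fell and 13.0% rose. Ces1d, a carboxylesterase with retinyl ester hydrolase activity, had 46.7, 243 and 325 CPM in the lowest, median and highest HFD library, against 398, 519.7 and 775 CPM in chow, with no overlap. A separation in that direction was seen for 2.70% of all genes tested. The log2 changes of Ces1d, Ces1f and Ces2a were −1.32, −1.59 and −1.44 (edgeR adjusted p = 0.00112, 0.00253 and 0.000653). The other genes that fell were Ces1g, Dgat1, an acyltransferase that can also esterify retinol, and Lipc, hepatic lipase, with −0.91, −0.41 and −0.70 (edgeR adjusted p = 0.0187, 0.0277 and 0.0307); these 3 are named after their values were seen. The call of Dgat1 was lost without HFD 8, chow 2 or chow 6, and that of Lipc without HFD 1, HFD 2, chow 2 or chow 6. The Ces1 genes lie in a cluster of close copies, so reads may be shared between them. Lpl, lipoprotein lipase, which releases retinol from the retinyl esters of chylomicrons, rose. Its lowest, median and highest HFD library had 65.1, 136 and 625 CPM, against 15.9, 17.4 and 31.9 CPM in chow, a log2 change of 3.28 (SE 0.369, edgeR adjusted p = 1.32e-06). The highest values of Lpl were those of HFD 1 and HFD 2, and without them the change was 2.59. Lpl is also expressed by macrophages, and 11 of 13 macrophage markers rose, against 13.0% of all genes tested. The summed level of the 13 markers was 1169 to 2505 CPM in HFD (median 1880.4) and 414 to 762 CPM in chow (median 582). Their part in the Lpl result was not tested.

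Among retinoid carriers and uptake proteins, 7 of 13 were tested, and the calls were Ttr, which fell, and Lpl, which rose. Of all genes tested, 7.05% fell and 13.0% rose. Stra6l, a liver receptor for RBP4, had 39.1, 115 and 179 CPM in the lowest, median and highest HFD library, against 114, 136 and 185 CPM in chow (log2 change −0.31, edgeR adjusted p = 0.308). This difference did not pass the test.

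Of the 2 tested genes of carotenoid cleavage, Bco1, which splits beta-carotene into retinal, rose by 1.62 in log2 (edgeR adjusted p = 0.0176). Of all genes tested, 13.0% rose. HFD 1 had 60.3 CPM of Bco1, and the other HFD libraries 3.52 to 26.4 CPM, against 2.11 to 4.96 CPM in chow. Without HFD 1 the change was 0.91, and without HFD 1 and HFD 2 it was 0.47 and no longer called (edgeR adjusted p = 0.0513). Without HFD 1, HFD 2 and HFD 6 it was 0.52 and called (edgeR adjusted p = 0.0208).

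Beyond the CYP26 genes, 4 tested genes can break down retinoic acid, and 2 of them fell, against 7.05% of all genes tested. Without HFD 1 and HFD 2 none of the 4 was called lower, and without HFD 6 as well 2 were. Cyp2s1, an inducible hydroxylase, was scarce, at 0, 0.104 and 0.376 CPM in the lowest, median and highest HFD library and 0.135, 0.310 and 2.65 CPM in chow. Its log2 change of −1.65 (edgeR adjusted p = 0.0401) was −0.85 without chow 7, the highest chow library, and the call was lost there and without any 1 of HFD 2, 3, 5, 8, 9 and 10 and chow 6. Ugt2b1, a glucuronosyltransferase with close copies, fell by 1.1 (edgeR adjusted p = 0.0471), a call that was lost without any 1 of HFD 1, 2, 7, 8 and 10 and of every chow library.

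Receptors of retinoic acid and their partners gave 1 call among 12 tested genes, and the median log2 change was −0.01. The share called higher was 8.33%, below the 13.0% of all genes tested. Rarg, a retinoic acid receptor, rose by 2.28 in log2 (edgeR adjusted p = 0.012), which rested on HFD 1 and HFD 2. Those libraries had 80 and 73.7 CPM, and the other HFD libraries 3.47 to 5.61 CPM, against 1.64 to 4.90 CPM in chow. Without HFD 1 and HFD 2 the change was 0.37 and was not called (edgeR adjusted p = 0.116). Rxra, the main retinoid X receptor of hepatocytes, averaged 299 ± 89.8 CPM in HFD and 399.9 ± 29.7 CPM in chow (SD, n = 10 each; edgeR adjusted p = 0.0809).

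Of 12 tested genes known to respond to retinoic acid, 1 rose, and the median log2 change was −0.15. That is 8.33% called higher, below the 13.0% of all genes tested. Tgm2, the tissue transglutaminase, had 93.7, 133 and 201 CPM in the lowest, median and highest HFD library, against 66.4, 72.7 and 80.7 CPM in chow. All HFD libraries lay above all chow libraries, as for 2.39% of all genes tested. The log2 change of Tgm2 was 0.92 (SE 0.129, edgeR adjusted p = 2.26e-05). Dhrs3, a retinal reductase induced by retinoic acid, averaged 96.5 ± 32.1 CPM in HFD and 129 ± 20.6 CPM in chow (SD, n = 10 each; edgeR adjusted p = 0.168).

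**Figure D5:**
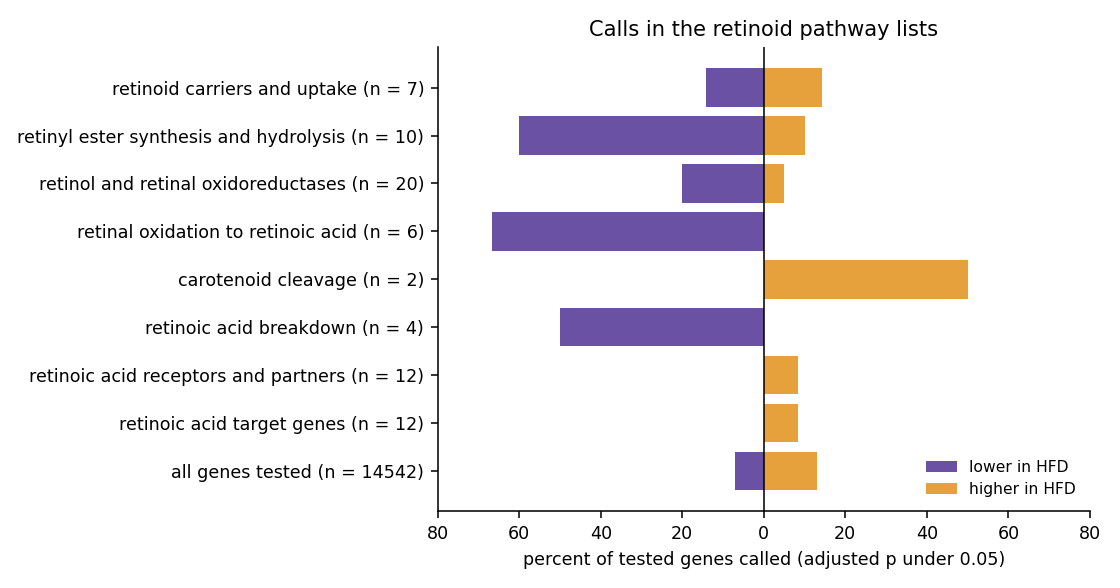
Percent of tested genes called lower (bars to the left) and higher (bars to the right) in HFD at an edgeR adjusted p under 0.05 (x axis), for 8 lists of the retinoid pathway and for all genes tested. The number of tested genes stands beside each list. Bars to the left are longest for retinal oxidation, 4 of 6 genes, and for retinyl ester enzymes, 6 of 10 genes, against 7.05% of all genes.

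Genes whose level followed that of a member most closely were found from diet-centred log2 CPM, as a description over libraries that all genes share. Over 20 libraries Rbp4 was closest to Spp2, Acaa2 and Serpina1b (Pearson r = 0.98, 0.97 and 0.97), and Aldh1a1 to Cyp2c50, Abat and Bdh1 (r = 0.98, 0.98 and 0.98). Cyp26b1 was closest to She, Exoc3l and Cdh5 (r = 0.89, 0.89 and 0.87), of which Cdh5 encodes the cadherin of endothelial cells. Cyp26a1 had its closest gene, Vti1a, at r = 0.78. Rdh11 was closest to Itih2, Dnaja4 and Krt8 over 20 libraries (r = 0.93, 0.92 and 0.92), but the closest without HFD 1 and HFD 2 included Gm8163 and Mtmr11 (r = 0.87 and 0.84). Across the 8 genes only 5 of 24 closest genes were shared between the 20 libraries and the 18 left without HFD 1 and HFD 2.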

How the data were processed

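Liver RNA was extracted with Trizol, per the labels' protocols. Per the submitters' processing notes fastp was used and the build was mm10. Aligner, counter, annotation and strandedness are not stated in the sources at hand. The authors deposited counts per gene and FPKM values, and the FPKM equal the counts scaled by column total and a fixed length (relative tolerance 1e-06, true of 27216 genes, every gene with counts). Of 55401 gene IDs, 55141 matched GENCODE M21 (GRCm38).

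The quasi-likelihood test of edgeR 4.0.16 (R 4.3.3; robust, two-sided, diet as sole term) was run on TMM-scaled counts. Genes had to pass filterByExpr at a minimum count of 10 and a total of 15, and Benjamini-Hochberg adjustment covered all genes tested. SE and 95% intervals come from that fit. Ratios are differences of log2 CPM (prior count 2), compared by a two-sided permutation test, exact with fewer than 10 libraries in a group and on 100000 resamples otherwise. Promoter sequences are from RefSeq (GRCm38.p6). Alternatives used DESeq2 1.42.0 and limma 3.58.1 (voom, and limma-trend on the deposited FPKM plus 1 or 0.1), other scalings and filters, the replicate block, and left-out libraries. The edgeR fit was also run on simulated counts of 14542 genes, 200 of them changed. It recovered 57% of the 2-fold and 94% of the 4-fold changes, with 1 false call among 152. Changes near 2-fold can thus be missed. No 2 libraries agreed within sampling noise; the closest pairs were HFD 4 with HFD 5 and chow 3 with chow 5, with a chi-square per gene of 14.1 and 10.6 (genes with 50 or more counts in the pair). Other software was pandas 2.3.3, scipy 1.17.1, matplotlib 3.10.9 and numpy 2.4.6 under Python 3.11.15.

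The 8 genes and all lists were chosen with earlier results of these data known. Named are all 8, up to 4 genes per list with the smallest p, the 3 genes of closest pattern for each of the 8, and others where said; a few that this rule names are not reported here. No batch labels are given, so handling and diet cannot be told apart. Symbols Pnpla4, Plaat3 and Tf had no match.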

Additional observations from a re-analysis of the deposited data

Results flagged for a closer look

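A library was picked out when the gap between it and the nearest other library of its diet, divided by the whole range of that diet, exceeded Dixon's 95% critical value of 0.466 for 10 samples. Of 96 groups checked, 23 held such a library. The critical value allows about 1 in 20 by chance for independent, normally distributed values. Most values here are untransformed CPM and the groups share libraries, so 23 of 96 cannot be set against that rate. No cause of these values was tested. Each is the CPM of a gene, or a log2 ratio where stated.

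HFD 1, one of the libraries with mostly mitochondrial counts, stood apart most often among the HFD libraries. Rarb had 5.77 CPM in HFD 1 against 0 to 1.14 CPM in the other HFD libraries. Bco1 had 60.3 CPM in HFD 1 against 3.52 to 26.4 CPM in the other HFD libraries. Ncoa1 had 77.1 CPM in HFD 1 against 12.2 to 34.2 CPM in the other HFD libraries. Des had 20.2 CPM in HFD 1 against 2.66 to 9.40 CPM in the other HFD libraries. Col1a1 had 42.7 CPM in HFD 1 against 3.14 to 19.4 CPM in the other HFD libraries. The log2 ratio of Lrat to the stellate cell markers was 4.15 in HFD 1, against 0.44 to 1.70 in the other HFD libraries. Aldh1a2 had 2.79 CPM in HFD 2 against 0 to 0.793 CPM in the other HFD libraries, and Cygb had 24.8 CPM in HFD 2 against 4.04 to 14.6 CPM in the other HFD libraries.

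HFD 6, the HFD library with Apoe near the chow level, was apart in 5 measures. Ces2a had 323 CPM in HFD 6 against 34.0 to 171 CPM in the other HFD libraries. Cyp3a11 had 6262 CPM in HFD 6 against 194 to 1972 CPM in the other HFD libraries. Nrip1 had 33.9 CPM in HFD 6 against 5.30 to 10.5 CPM in the other HFD libraries. Lox had 2.45 CPM in HFD 6 against 0 to 1.07 CPM in the other HFD libraries. The log2 ratio of Rbp4 to Ttr in HFD 6 was −2.23, against −1.23 to −0.69 in the other HFD libraries. Cyp2c39 had 2.67 CPM in HFD 10 against 0 to 1.27 CPM in the other HFD libraries.

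Among the chow libraries, chow 2 stood apart in both directions. Rbp4 had 4020.1 CPM in chow 2 against 1994 to 2943 CPM in the other chow libraries. Ttr had 9608 CPM in chow 2 against 5725 to 7076 CPM in the other chow libraries. Stra6l had 185 CPM in chow 2 against 114 to 145 CPM in the other chow libraries. Rarres1 had 106 CPM in chow 2 against 48.9 to 65.7 CPM in the other chow libraries. In the other direction, Aox3 had 617 CPM in chow 2 against 833 to 1021 CPM in the other chow libraries, Aldh8a1 had 278 CPM in chow 2 against 315 to 355 CPM in the other chow libraries, Ncoa1 had 8.05 CPM in chow 2 against 12.1 to 16.1 CPM in the other chow libraries, and Vipr1 had 11.8 CPM in chow 2 against 22.0 to 28.7 CPM in the other chow libraries. Cyp2s1 had 2.65 CPM in chow 7 against 0.135 to 0.497 CPM in the other chow libraries.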

How the results depend on the processing

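Rdh11 kept its direction and its call in all 35 alternatives run (adjusted p at most 0.0165), and Lrat, Aldh1a2 and Rarb were called in none of those run for them. Values below are log2 changes with the adjusted p in parentheses. The call of Cyp26a1 was lost with limma voom, −0.96 (0.0767), RLE scaling, −0.94 (0.0628), upper quartile scaling, −0.95 (0.0582), library totals only, −1.1 (0.262), no filter, −0.996 (0.0624), a filter of 1 CPM in 10 samples, −0.95 (0.0608), limma-trend on log2(FPKM + 1), −1.1 (0.134), and on log2(FPKM + 0.1), −1.31 (0.223), without HFD 1 and HFD 2, −1.02 (0.0543), and with nuclear protein-coding genes only, −0.97 (0.052). That of Rbp4 was lost with library totals only, −0.69 (0.815), and on log2(FPKM + 1), −1.36 (0.326), and log2(FPKM + 0.1), −1.37 (0.34). Cyp26b1 passed the threshold with DESeq2, −1.09 (0.0493), and with voom and sample quality weights, −0.97 (0.0451). Aldh1a1 passed it with voom, −1.26 (0.0239), with sample quality weights, −0.41 (0.0213), and without HFD 1, HFD 2 and HFD 6, −0.39 (0.0231). In that last setting, chosen after seeing the data, the log2 ratio of Rbp4 to Ttr differed by 0.41 and also passed. The cause of these differences was not tested.

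Genes called over all genes numbered 2911, and 5364 with sample quality weights, 600 with library totals only, 717 and 498 on log2(FPKM + 1) and log2(FPKM + 0.1) and 4964 without HFD 1, HFD 2 and HFD 6. Pathway genes called higher numbered 5, and 8 with DESeq2, 2 with voom, 1 with library totals only and 8 without HFD 1 and HFD 2. Those called lower numbered 17, and 0 with library totals only, a setting that leaves the mitochondrial counts in the scale. The share of calls that were higher was 64.8%, against 48.7% with voom, with and without sample quality weights, 84.5% with library totals only, 76.7% without a filter, and 54.9% without HFD 1, HFD 2 and HFD 6. The median log2 change of all genes, 0.02, was 0.13 without a filter and −0.14 and −0.39 on log2(FPKM + 1) and log2(FPKM + 0.1). Of the 24 closest genes, 5 remained without HFD 1 and HFD 2.

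The labels do not say whether replicate numbers pair the samples. The correlations of same-numbered deviations ran from −0.11 to 0.13, and only replicate 2 correlated best with its own number. Such correlations cannot show that the samples were unpaired. With the replicate number as a block, 1574 genes were called and 2 pathway genes were higher. Cyp26a1 was −0.89 (0.0618) and Rbp4 −0.87 (0.0848) in that setting, and neither was called.

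Leaving out 1 library at a time gave 2424 to 3330 called genes, 4 to 7 pathway genes higher and 11 to 20 lower. The log2 changes ran over −0.87 to −0.65 for Rbp4, −2.21 to −1.88 for Rdh11, −0.88 to −0.65 for Aldh1a1, −1.16 to −0.82 for Cyp26a1, −1.41 to −0.96 for Cyp26b1, 0.36 to 1.08 for Aldh1a2, −0.35 to 0.18 for Rarb and −0.03 to 0.11 for Lrat. The log2 ratio differed by 0.28 to 0.45 for Rbp4 to Ttr, 0.05 to 0.46 for Lrat and −0.66 to −0.45 for Aldh1a1. Depth limits Aldh1a2, Rarb and Lox, and every gene in HFD 1 and HFD 2, whose TMM-scaled library sizes were 3464114 and 5729645. Aldh1a2 was not tested under the 1 CPM filter.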

Other observations

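Some retinoid genes did not pass the filter on low counts; those given here are named after their values were seen and were not tested. Rdh12, a retinol dehydrogenase, had 226 counts over the 10 HFD libraries and 21 over the 10 chow libraries, or 0.28 ± 0.422 CPM in HFD and 0.0366 ± 0.0562 CPM in chow (SD, n = 10 each). Pnpla3, a lipase of lipid droplets that also cleaves retinyl esters, had 151 counts over the 10 HFD libraries and 53 over the 10 chow libraries, or 0.181 ± 0.223 CPM in HFD and 0.0997 ± 0.0684 CPM in chow (SD, n = 10 each). Stra6, the RBP4 receptor of tissues outside the liver, had 27 counts over the 10 HFD libraries and 8 over the 10 chow libraries, or 0.0966 ± 0.156 CPM in HFD and 0.0142 ± 0.0343 CPM in chow (SD, n = 10 each). For Cyp26c1, the remaining CYP26 hydroxylase, the values were 129 counts over the 10 HFD libraries and 114 over the 10 chow libraries, or 0.175 ± 0.339 CPM in HFD and 0.232 ± 0.146 CPM in chow (SD, n = 10 each). The ranges of the diets overlapped in each of these genes.

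Of 12 tested periportal hepatocyte markers, 3 fell and 1 rose, or 25.0% and 8.33%, against 7.05% and 13.0% of all genes tested. The marker that rose is not named here. Hal, which degrades histidine, and Gls2, the liver glutaminase, changed by −0.93 and −0.70 in log2 (edgeR adjusted p = 0.000355 and 0.00394), with all HFD libraries below all chow libraries. A separation in that direction was seen for 2.70% of all genes tested. Of 6 adipose markers, 2 passed the filter and neither was called by edgeR, with 1 at an unadjusted p under 0.05 and 1 called by DESeq2. The 6 summed to 0.384 to 26.0 CPM in HFD (median 1.71) and 0.985 to 2.60 CPM in chow (median 1.94), with HFD 9 the highest.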
